A study of Homo sapiens with 4 samples.

Results

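The V-ATPase, lysosomal membrane and TFEB regulator genes described here are 41 genes that build, acidify or control the lysosome. They were taken by symbol from a list of 5 role groups. These are 8 genes of the V0 sector, 8 of the V1 sector, 2 accessory subunits, 10 lysosomal membrane proteins and 13 genes of nutrient sensing and TFEB control. All 41 were found among the 61541 Ensembl gene IDs of the count table, and all 41 were among the 16863 genes that passed the filter on low counts. The cells were MHCC97H, an established human hepatocellular carcinoma (HCC) line, and the comparison was between 2 libraries of control cells (shCon) and 2 libraries of cells carrying a short hairpin RNA against UBXN1 (shUBXN1), an adaptor of the VCP segregase. The question was how knockdown of UBXN1 alters gene expression in these cells. No further treatment or time was given in the labels, the hairpin sequenced is not named in the sources used here, and the methods call the control shRFP. Nothing in the labels says whether the libraries of a group came from separate cultures, so p-values measure only the spread between these libraries, which may be technical.

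The V-ATPase is a rotary proton pump. Its cytosolic V1 sector hydrolyses ATP and turns a shaft that drives protons through the membrane-embedded V0 sector into the lysosome. On the lysosomal surface the Ragulator complex and the Rag GTPases recruit mTORC1 when amino acids are plentiful, and active mTORC1 keeps TFEB and TFE3 in the cytoplasm. When mTORC1 is off, these factors enter the nucleus and bind the E-box CACGTG, often extended to TCACGTGA, near lysosomal genes.

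Because this motif is how the TFEB family recognises its genes, the promoters of the 41 genes were searched for it. RefSeq windows (GRCh38.p14) of 250 bases before to 50 bases after the transcription start matched 33 genes, with 52 windows, since some genes have several starts. ATP6V0E1, ATP6V1A, ATP6V1B2, ATP6V1C1, ATP6V1H, LAMP2, RRAGA and RRAGD had no window in the table. Both motifs read the same on either strand, and each TCACGTGA holds a CACGTG. The longer motif lay in 5 genes, and 1 site from each is shown with its neighbouring bases, followed by sites with the core alone from RRAGC, a gene that rose, and LAMTOR1, a gene that fell. Capitals mark the motif, and each sequence is written in the direction of the gene.
ATP6V0D1: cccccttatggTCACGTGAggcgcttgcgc
ATP6V1G1: acgctgtgcggTCACGTGAcaacgggggcg
LAMP1: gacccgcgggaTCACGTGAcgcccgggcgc
CLN3: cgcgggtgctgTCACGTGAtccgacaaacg
MCOLN1: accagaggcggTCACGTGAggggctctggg
RRAGC: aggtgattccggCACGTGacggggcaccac
LAMTOR1: ctttccccgcatCACGTGcttgcgtgtacg

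The stretch shown for ATP6V0D1 is chr16:67481199-67481228 on the minus strand, with the core CACGTG starting 59 bases before the transcription start. For ATP6V1G1 it is chr9:114587699-114587728 on the plus strand, 58 bases before the start. For LAMP1 it is chr13:113297199-113297228 on the plus strand, 28 bases before the start, and for CLN3 it is chr16:28492058-28492087 on the minus strand, where the core spans the start itself. The MCOLN1 site is at chr19:7522571-7522600 on the plus strand, 41 bases before the start. The RRAGC site is at chr1:38859867-38859896 and the LAMTOR1 site at chr11:72103445-72103474, both on the minus strand and 112 and 165 bases before the start. Counted by gene, TCACGTGA was present for 5 of 33 (15.2%), against 2.12% of the 11671 tested genes with a window, and CACGTG for 12 of 33 (36.4%), against 12.2%. Counted by window, TCACGTGA lay in 6 of 52 (11.5%), against 0.98% of all 35116 windows in the table, and CACGTG in 14 of 52 (26.9%), against 7.26%. These 35116 windows include genes that were not tested, so the comparison by gene is the closer one. Of all 27305 genes with a window, 8.77% held CACGTG and 1.18% TCACGTGA, below the shares of tested genes. None of these differences was tested.

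The libraries held between 23373700 and 27380508 counts. Replicates correlated across genes with Pearson's r of 0.996 in shCon and 0.995 in shUBXN1, although genes are not independent of each other. UBXN1 (ENSG00000162191) was at 67.1 and 77.3 CPM (counts scaled to a common library size with TMM factors) in shCon and at 16.8 and 18.5 CPM in shUBXN1, a log2 fold change of -2.03 (SE 0.0963, edgeR quasi-likelihood test, adjusted p = 9.98e-10). Counts on the mitochondrial genome took 5.28% and 5.59% of shCon and 7.43% and 8.27% of shUBXN1 libraries, and the part of this difference in the changes of the 41 genes was not tested. Of 11 hepatocyte and HCC markers, GPC3 was at 0 in every library, and of the 10 tested 6 were lower and 2 higher. The falls were largest for ALB (log2 fold change -1.97), APOB (-1.85), TTR (-3.08) and FGB (-4.02), which are secreted hepatocyte products. Secreted products did not all fall. SERPINA1 was higher (0.40, edgeR adjusted p = 0.0271), as was the keratin KRT18 (0.31), and AFP (-0.29) and APOA1 (-0.56) were not called. The list summed to 4360 and 4540 CPM in shCon and to 3440 and 4040 CPM in shUBXN1, nearly all of it the keratins KRT8 and KRT18. The part of these marker changes in those of the 41 genes was not tested. Of 8 markers of leukocytes, endothelium, fibroblasts and red cells, 5 were under 1 CPM in every library, among them CD3E at 0. The 8 summed to 35.1 and 35.3 CPM in shCon and to 47.8 and 46.5 CPM in shUBXN1, nearly all of it PECAM1. PECAM1 (0.35) and COL1A1 (3.11, at most 2.52 CPM) were called higher, and CD14 (0.19) and VWF (1.21, edgeR adjusted p = 0.0501) were tested and not called. In bulk libraries fewer cells of a kind and less RNA per cell cannot be told apart.

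More of the 41 genes rose than fell after UBXN1 knockdown. At a Benjamini-Hochberg adjusted p under 0.05 over all genes tested, 26 were higher, 6 were lower and 9 were not called. Over all genes tested, 28.0% were called higher and 28.2% lower by the same rule, 56.2% together, so the share called higher was above the background and the share called lower (14.6%) was below it. The 41 genes were chosen with earlier results of these data known, so this difference is a description and was not tested. Their log2 fold changes had a median of 0.29, against 0.02 for all genes tested, whose quartiles were at -0.39 and 0.51. Most changes were small. At a fold change of 2 with an unadjusted p under 0.05, the rule of the study's methods, only ATP6AP1 and MITF were higher, and only LAMTOR1 was lower, against a background of 11.8% of genes higher and 6.09% lower. Of the 32 genes called, 21 kept their call under every alternative in which they were tested, and 11 lost it under at least 1 of them.

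**Figure D1:**
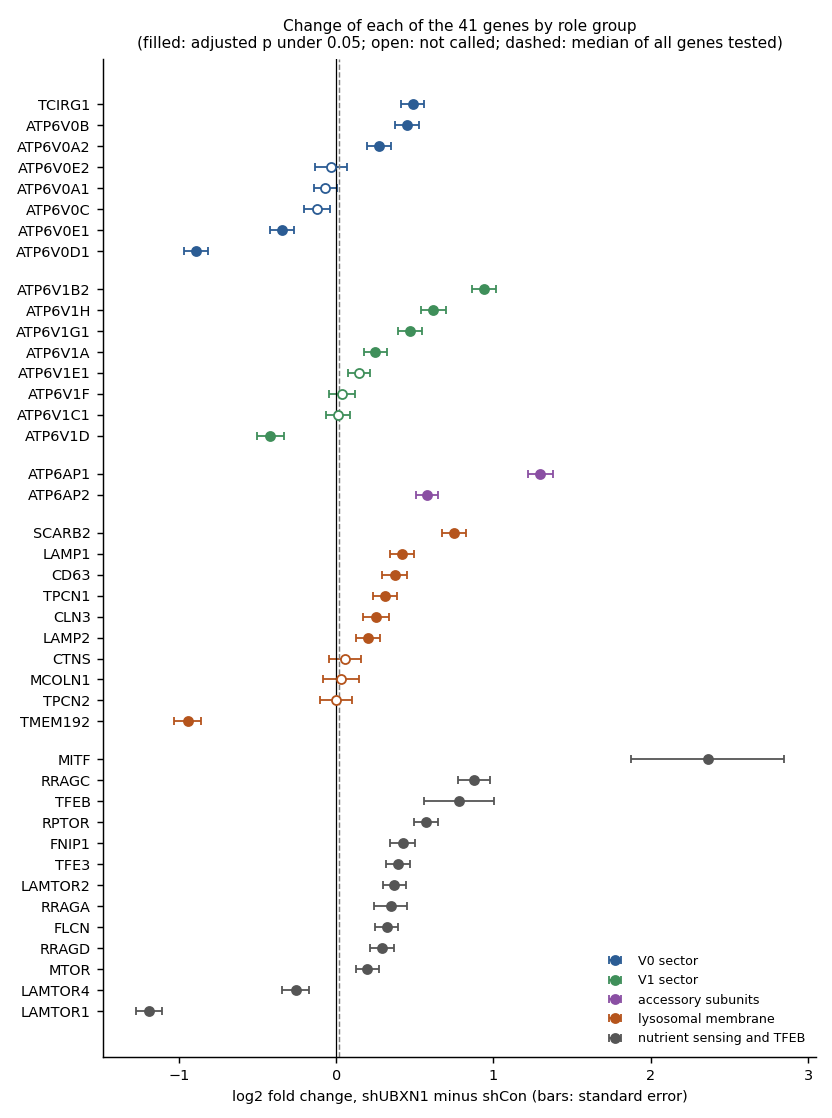
Log2 fold change of each gene, shUBXN1 minus shCon, grouped by role, with bars for the standard error of the edgeR fit, filled points for an adjusted p under 0.05 and a dashed line at the median of all genes tested (0.02). The accessory subunits and nearly all nutrient-sensing genes lie to the right of 0, while the V0 genes spread from -0.89 for ATP6V0D1 to 0.49 for TCIRG1.

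The V0 sector showed no common direction, with 37.5% of its genes called higher and 25.0% lower, against 28.0% and 28.2% of all genes tested. Of its 8 genes, 3 were higher, 2 were lower and 3 were not called, with a median log2 fold change of -0.05 that changed sign when libraries were scaled by their totals (0.04) or when TPM was tested with limma (0.01). The largest change was a fall of ATP6V0D1 (ENSG00000159720, chr16:67438014-67481181 on the minus strand of GRCh38 in GENCODE release 44, the source of all gene positions given), the d subunit that couples the V0 ring to the central shaft of V1. It was at 70.7 and 75.8 CPM in shCon and at 39.8 and 39.1 CPM in shUBXN1. The groups lay far apart compared with the gap between replicates, and the log2 fold change was -0.89 (SE 0.0779, edgeR adjusted p = 3.13e-07). ATP6V0E1, a small membrane subunit of the e type, also fell, by 0.35 on the log2 scale (edgeR adjusted p = 0.00142). Its paralog ATP6V0E2 was at a log2 fold change of -0.03 (edgeR adjusted p = 0.798) and its groups overlapped.

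The a subunit forms the path protons take through the membrane and exists in isoforms that send the pump to different membranes. TCIRG1, the a3 isoform known from the ruffled border of osteoclasts, was at 80.6 CPM in both shCon libraries and at 118 and 108 CPM in shUBXN1, all above the control level. Its log2 fold change was 0.49 (SE 0.0751, edgeR adjusted p = 7.49e-05), which dropped to 0.27 with the GC trend removed (edgeR adjusted p = 0.00719). ATP6V0A2, the a2 isoform of Golgi and endosomes, was at 51.0 and 53.0 CPM in shCon and at 60.9 and 64.5 CPM in shUBXN1. Its rise of 0.27 (SE 0.0766, edgeR adjusted p = 0.0079; 0.29 with the GC trend removed) missed the threshold when either shCon library was left out (edgeR adjusted p = 0.083 and 0.0881). ATP6V0A1, the a1 isoform, was at 65.9 and 68.6 CPM in shCon and at 64.7 and 63.6 CPM in shUBXN1, a log2 fold change of -0.07 (SE 0.074, edgeR adjusted p = 0.458), which was 0.02 with libraries scaled by their totals.

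Within the a family, levels were compared per length, as TPM, counts divided by gene length and scaled to a common library total. TCIRG1 took 55.8% and 54.8% of the family TPM in shCon and 62.4% and 59.9% in shUBXN1. The share of ATP6V0A1 was 29.6% and 30.3% in shCon and 22.2% and 22.9% in shUBXN1, so the groups did not overlap for either isoform. ATP6V0A2 kept a share between 13.2% and 14.8% in every library. The share of ATP6V0A4, the kidney-type a4 isoform, was 0.135% and 0.2% in shCon and 2.09% and 2.46% in shUBXN1. These shares carry no p-value, because an exact permutation test of 2 against 2 libraries cannot give less than 0.333 (two-sided). They were also not corrected for GC content, which was 65.0% for TCIRG1, 51.0% for ATP6V0A1 and 45.7% for ATP6V0A2. With the GC trend removed, the log2 fold changes of TCIRG1 (0.27) and ATP6V0A2 (0.29) were alike.

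The remaining V0 genes encode the proton-carrying ring. ATP6V0B, the c″ proteolipid, was higher with a log2 fold change of 0.45 (edgeR adjusted p = 0.000168), while ATP6V0C, the main c proteolipid, was at -0.12 (edgeR adjusted p = 0.227). The ATP6V0C groups overlapped. Its call depended on the processing, since it was lower once the trend with GC content was removed (-0.32, edgeR adjusted p = 0.00588) or without shUBXN1 replicate 2 (-0.25, edgeR adjusted p = 0.00266). Per length ATP6V0C was the most abundant V0 gene, at 231 and 236 TPM in shCon and 214 and 232 TPM in shUBXN1. Summed over the 8 V0 genes, TPM was 685 and 700 in shCon and 671 and 661 in shUBXN1.

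In the V1 sector 4 of 8 genes were higher, 1 was lower and 3 were not called, with a median log2 fold change of 0.20. Of all genes tested, 28.0% were called higher and 28.2% lower, 56.2% together, and the difference from this background was not tested. ATP6V1B2, the B subunit of the catalytic head in most tissues, was at 66.1 and 64.7 CPM in shCon and at 121 and 131 CPM in shUBXN1. Both knockdown libraries were well above both controls, with a log2 fold change of 0.94 (SE 0.0755, edgeR adjusted p = 1.29e-07), the largest rise in either sector. Its partner ATP6V1A, the A subunit that binds and hydrolyses ATP, was higher by 0.25 (edgeR adjusted p = 0.0112), a call lost without shCon replicate 1 (edgeR adjusted p = 0.0729) or shCon replicate 2 (edgeR adjusted p = 0.167). ATP6V1H, a regulatory subunit needed for activity of the assembled pump, was at 57.3 and 57.9 CPM in shCon and at 83.6 and 93.0 CPM in shUBXN1. The groups were well separated, with a log2 fold change of 0.62 (SE 0.0784, edgeR adjusted p = 1.22e-05).

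Of the stalk genes, ATP6V1G1 of the peripheral stalks was higher by 0.47 (edgeR adjusted p = 0.000113). ATP6V1D, part of the central shaft that meets ATP6V0D1, fell by 0.42 on the log2 scale (edgeR adjusted p = 0.00082). ATP6V1E1, a peripheral stalk subunit, was at a log2 fold change of 0.15 (edgeR adjusted p = 0.101) with groups that did not overlap, and it passed the threshold under 5 alternatives, among them library totals (0.23, edgeR adjusted p = 0.00594). ATP6V1F of the shaft (0.04) and ATP6V1C1, the C subunit that clamps V1 to V0 (0.01), were not called and their groups overlapped. Summed over the 8 V1 genes, TPM was 773 and 781 in shCon and 966 and 945 in shUBXN1, above the control range. The summed V0 level was only slightly below its control range (685 and 700 in shCon, 671 and 661 in shUBXN1). Neither sum was tested.

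**Figure D2:**
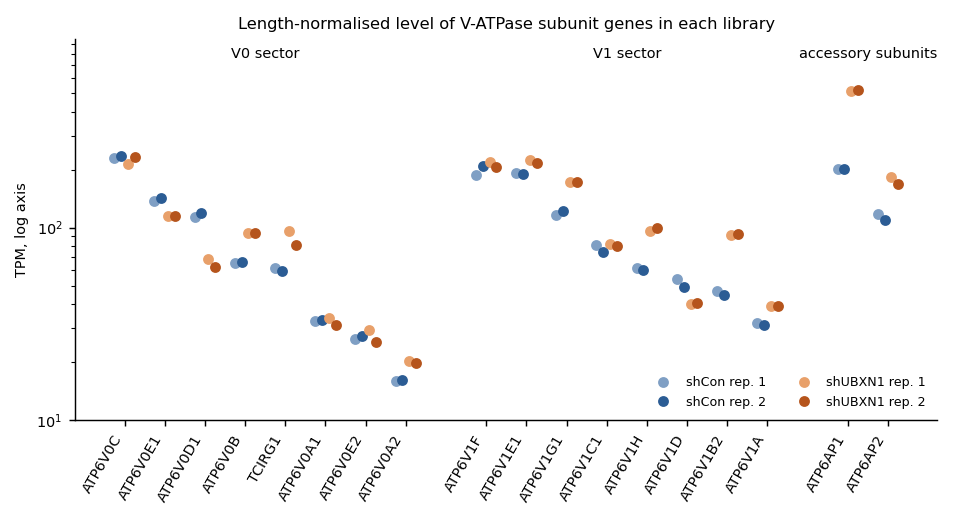
TPM (log axis) of each V-ATPase gene in each library, with V0, V1 and accessory genes ordered by their shCon mean. ATP6AP1 rose from about the level of ATP6V1F and ATP6V1E1 to the highest of all 18 genes (512 and 518 TPM), and ATP6V0D1 fell from near ATP6V0E1 to the level ATP6V0B had in shCon.

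Both accessory subunits rose. ATP6AP1 (Ac45; ENSG00000071553, chrX:154428633-154436516, plus strand), a luminal glycoprotein of V0 that guides assembly of the pump, was at 203 and 209 CPM in shCon and at 485 and 529 CPM in shUBXN1. Each knockdown library was more than 2 times the level of either control library, and the log2 fold change was 1.30 (SE 0.0787, edgeR adjusted p = 9.03e-09). ATP6AP2, also known as the prorenin receptor, was at 130 and 124 CPM in shCon and at 191 and 189 CPM in shUBXN1. Its rise was smaller, 0.58 on the log2 scale (SE 0.0722, edgeR adjusted p = 1.01e-05). The pair summed to 320 and 310 TPM in shCon and to 696 and 687 TPM in shUBXN1. Over the 18 V-ATPase genes together, 9 were higher, 3 were lower and 6 were not called. Among all genes tested, 28.0% were called higher and 28.2% lower.

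Lysosomal membrane proteins mostly rose by small amounts. Of 10 genes, 6 were higher, 1 was lower and 3 were not called, with a median log2 fold change of 0.23. The background was 28.0% called higher and 28.2% lower among all genes tested, and the difference from it was not tested. SCARB2 (LIMP-2; ENSG00000138760, chr4:76158737-76234536, minus strand), the receptor that carries glucocerebrosidase to lysosomes, was at 166 and 153 CPM in shCon and at 263 and 276 CPM in shUBXN1. The groups did not overlap and the log2 fold change was 0.75 (SE 0.0761, edgeR adjusted p = 1.3e-06). The abundant glycoprotein LAMP1 rose by 0.42 (edgeR adjusted p = 0.000261). CD63, a tetraspanin of late endosomes and lysosomes, rose by 0.37 (edgeR adjusted p = 0.00112) and was the most abundant of all 41 genes, at 1320 and 1290 TPM in shCon and 1770 and 1740 TPM in shUBXN1. LAMP2, which also serves chaperone-mediated autophagy, was higher by 0.20 (edgeR adjusted p = 0.0317).

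TMEM192 (ENSG00000170088, chr4:165070608-165208549, minus strand), a protein commonly tagged to pull down intact lysosomes, moved the other way. It was at 47.1 and 49.7 CPM in shCon and at 25.3 and 24.9 CPM in shUBXN1. The knockdown libraries were close to each other and well below the controls, with a log2 fold change of -0.94 (SE 0.0844, edgeR adjusted p = 3.83e-07). Among the channels and transporters, the calcium-permeable channel TPCN1 rose by 0.31 (edgeR adjusted p = 0.00286) and CLN3, the protein lost in juvenile Batten disease, by 0.25 (edgeR adjusted p = 0.0173). TPCN2 (-0.00), the calcium channel MCOLN1 (0.03) and the cystine exporter CTNS (0.06) were not called, and their groups overlapped. The calls of LAMP2, CD63, TPCN1 and CLN3 were all lost without shCon replicate 2 (edgeR adjusted p = 0.495, 0.106, 0.0617 and 0.0812). Those of LAMP2 and CLN3 were also lost without shCon replicate 1 (edgeR adjusted p = 0.0979 and 0.191), and that of CLN3 with DESeq2 (adjusted p = 0.0614) and with the GC trend removed (edgeR adjusted p = 0.106).

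**Figure D3:**
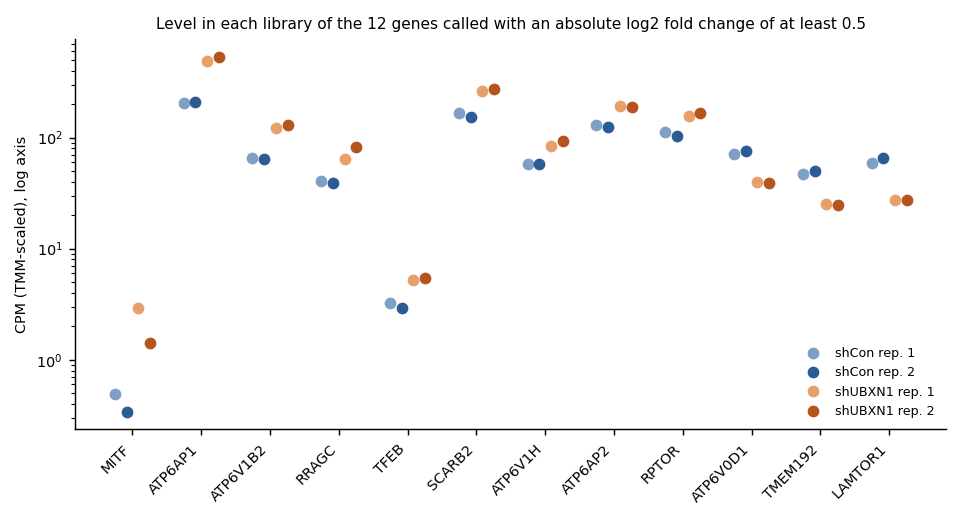
CPM (log axis) in each library of the 12 genes called with an absolute log2 fold change of at least 0.5, ordered from the largest rise to the largest fall. The shCon and shUBXN1 libraries do not overlap for any of them, MITF lies lowest and its replicates differ most, and ATP6V0D1, TMEM192 and LAMTOR1 are the 3 that fell.

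All 13 genes of nutrient sensing and TFEB control were called, 11 higher and 2 lower, with a median log2 fold change of 0.37. The shares were 84.6% higher and 15.4% lower, against 28.0% and 28.2% of all genes tested. The 2 that fell belong to Ragulator, the scaffold of 5 LAMTOR proteins that holds the Rag GTPases on the lysosome. LAMTOR1 (ENSG00000149357, chr11:72085895-72103297, minus strand), its lipid-anchored subunit, was at 59.1 and 65.2 CPM in shCon and at 27.3 and 27.2 CPM in shUBXN1. It had the largest fall of the 41 genes, with a log2 fold change of -1.19 (SE 0.0843, edgeR adjusted p = 4.06e-08). LAMTOR4 fell by 0.26 on the log2 scale (edgeR adjusted p = 0.0185), but this call was lost with library totals (-0.17, edgeR adjusted p = 0.155), with limma on TPM (-0.20, adjusted p = 0.143), and without shCon replicate 1 (edgeR adjusted p = 0.158) or shUBXN1 replicate 2 (edgeR adjusted p = 0.0594). LAMTOR2 rose by 0.37 (edgeR adjusted p = 0.000695). The other subunits, outside the 41 genes and named after their values were seen, were LAMTOR5, which was higher by 0.45 (edgeR adjusted p = 0.000254), and LAMTOR3, which was at -0.19 (edgeR adjusted p = 0.114).

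The Rag GTPases rose. RRAGC (ENSG00000116954, chr1:38838198-38859772, minus strand), whose nucleotide state decides whether TFEB is held at the lysosome, was at 40.7 and 39.1 CPM in shCon and at 64.4 and 82.1 CPM in shUBXN1. The knockdown replicates differed from each other more than the controls did, but both lay above them, and the log2 fold change was 0.88 (SE 0.102, edgeR adjusted p = 5.22e-06). Its paralog RRAGD rose by 0.29 (edgeR adjusted p = 0.00525), a call lost without shCon replicate 2 (edgeR adjusted p = 0.157). Of the TPM of this pair, RRAGC took 62.1% and 62.5% in shCon and 68.8% and 73.3% in shUBXN1. RRAGA, the partner of either, rose by 0.35 (edgeR adjusted p = 0.0125), a call lost with DESeq2 (adjusted p = 0.0534) or without shCon replicate 1 (edgeR adjusted p = 0.149).

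FLCN and FNIP1 form the complex that activates RagC and RagD as a GTPase-activating protein. FLCN rose by 0.32 (edgeR adjusted p = 0.0023; 0.0664 without shCon replicate 2) and FNIP1 by 0.42 (edgeR adjusted p = 0.000319). RPTOR, the mTORC1 subunit that binds Rag GTPases and substrates, was at 112 and 104 CPM in shCon and at 157 and 165 CPM in shUBXN1. The groups did not overlap, with a log2 fold change of 0.57 (SE 0.0751, edgeR adjusted p = 1.65e-05). MTOR, the kinase itself, was higher by 0.20 (edgeR adjusted p = 0.0342). That call was lost with DESeq2 (adjusted p = 0.0509), with the GC trend removed (edgeR adjusted p = 0.0651) and without shCon replicate 1, shCon replicate 2 or shUBXN1 replicate 2 (edgeR adjusted p = 0.0863, 0.43 and 0.1).

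TFEB, TFE3 and MITF, the MiT/TFE transcription factors among the 41 genes, were all higher, from very different levels. TFE3 was at 135 and 143 CPM in shCon and at 174 and 191 CPM in shUBXN1, a log2 fold change of 0.39 (SE 0.0769, edgeR adjusted p = 0.000595). TFEB was at 3.26 and 2.94 CPM in shCon and at 5.25 and 5.42 CPM in shUBXN1. Its groups did not overlap, and its log2 fold change was 0.78 (SE 0.221, edgeR adjusted p = 0.00786).

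MITF (ENSG00000187098, chr3:69739456-69968336, plus strand), the family member known from pigment cells, was at 13 and 8 counts in shCon and at 72 and 33 counts in shUBXN1, or 0.488, 0.341, 2.91 and 1.41 CPM. Its rise was the largest of the 41 genes, but it rested on few counts and on knockdown replicates that differed by about 2 times. The log2 fold change was 2.36 (SE 0.485, edgeR adjusted p = 0.000835), and it ranged from 1.74 without shUBXN1 replicate 1 to 2.77 without shUBXN1 replicate 2. On the log2(TPM + 1) scale, which understates changes of low genes, it was 0.71 (limma, adjusted p = 0.0253).

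Per length, TFE3 made up 90.1% and 90.9% of the family TPM in shCon and 90.0% and 91.3% in shUBXN1. TFEB took 3.27% and 2.8% in shCon and 4.08% and 3.9% in shUBXN1, and MITF took 0.223% and 0.148% in shCon and 1.03% and 0.462% in shUBXN1. TFE3 was therefore the leading family member in every library, and the rises of TFEB and MITF hardly altered the composition of the family. TFEC, the remaining paralog and not among the 41 genes, was not called (log2 fold change -0.06, edgeR adjusted p = 0.653) and held 6.4% and 6.11% in shCon and 4.87% and 4.31% in shUBXN1.

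Genes with the E-box were set beside those without it as a description. Of the 12 genes with CACGTG in a window, 7 were higher, 3 were lower and 2 were not called. Of the 21 genes with a window but no CACGTG, 13 were higher, 2 were lower and 6 were not called. The 5 genes with TCACGTGA shown above ranged from ATP6V0D1, with a log2 fold change of -0.89, through MCOLN1 at 0.03, to CLN3 at 0.25, LAMP1 at 0.42 and ATP6V1G1 at 0.47. The genes with the largest rise and the largest fall on the list differed in this respect too, as no MITF window held CACGTG and LAMTOR1 had the site shown.

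Other genes of the same machinery were read from lists beside the 41. Of 3 tested V-ATPase isoforms with restricted expression, ATP6V0A4 rose from 6 and 8 counts in shCon to 113 and 120 counts in shUBXN1 (log2 fold change 4.09, SE 0.374, edgeR adjusted p = 4.83e-07), and ATP6V1E2, the testis-type E subunit, fell by 1.24 on the log2 scale (edgeR adjusted p = 0.000745). Of 12 assembly and regulation genes, 7 were higher and 4 were lower, none by a fold change of 2. Of 29 other lysosomal membrane proteins, 17 were higher and 6 lower. Of 10 other Rag, Ragulator and mTORC1 genes, 6 were higher and 4 were not called. Over all genes tested, 28.0% were called higher and 28.2% lower.

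Amino acid sensing genes were split, with 7 of 18 higher (38.9%) and 6 lower (33.3%), against 28.0% and 28.2% of all genes tested. Those past a log2 fold change of 1 were SESN3, a sestrin, one of a family of stress-induced proteins that bind GATOR2 (3.50, edgeR adjusted p = 8.02e-06), BMT2, the S-adenosylmethionine sensor SAMTOR (1.36, edgeR adjusted p = 6.45e-08), and CASTOR1, the arginine sensor (1.17, edgeR adjusted p = 0.0175). SESN3 and CASTOR1 rested on few counts. SESN3 was at 15 and 4 counts in shCon and at 115 and 93 counts in shUBXN1. CASTOR1 was at 22.2 and 30.1 counts in shCon and at 69.7 and 44.4 counts in shUBXN1. The other sestrins, named after their values were seen, were SESN2, a leucine sensor, which fell by 0.63 on the log2 scale (edgeR adjusted p = 0.000407), and SESN1, which was at 0.26 (edgeR adjusted p = 0.26). Other genes of the MiT/TFE axis were split as well, with 4 of 16 higher (25.0%) and 5 lower (31.2%), near the shares of all genes. The autophagy protein WIPI1 rose by 1.02 (edgeR adjusted p = 6.29e-06) and PPP3R1, the regulatory subunit of calcineurin, which dephosphorylates TFEB, fell by 1.03 on the log2 scale (edgeR adjusted p = 6.23e-08). The remaining called genes of this list changed less and were named after their values were seen. GPNMB (-0.99, edgeR adjusted p = 1.94e-05), SQSTM1 (-0.86, edgeR adjusted p = 2.68e-06), YWHAE (-0.83) and PPP3CB (-0.54) were lower. FNIP2 (0.99), UVRAG (0.40) and YWHAH (0.29) were higher.

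**Figure D4:**
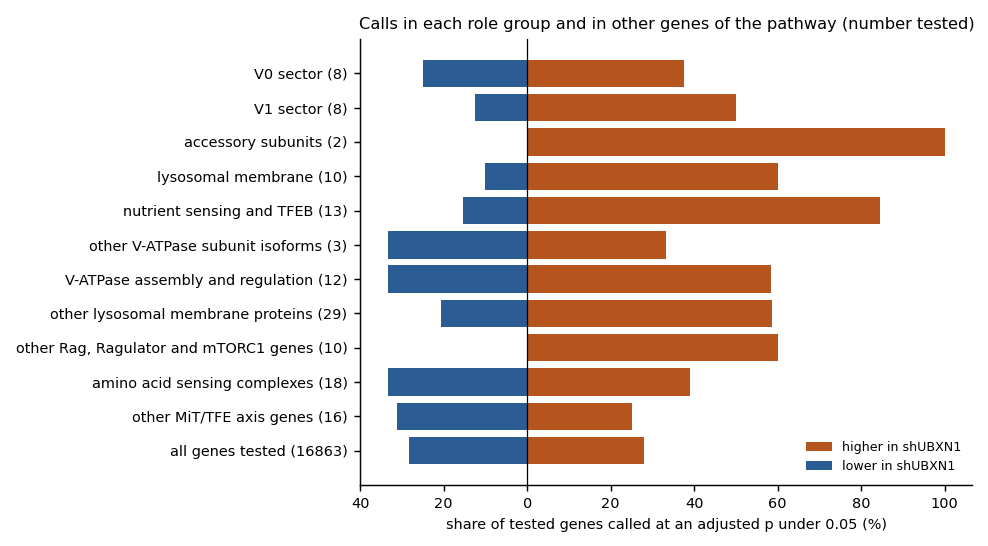
Share (%) of tested genes called higher (right) or lower (left) in shUBXN1 at an adjusted p under 0.05, for the 5 role groups, 6 lists of related genes and all genes tested, with the number tested in parentheses. The share called higher was 84.6% for nutrient sensing and TFEB genes and 25.0% for other MiT/TFE axis genes, against 28.0% of all genes tested.

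Some of the 41 genes share exon bases with a neighbour in GENCODE, and the sources used here do not say how such reads or their strand were treated. ATP6V0C had 76.3% of its exon bases under 2 same-strand genes, which held at most 6.78 counts in a library. CLN3 shared 25.3% with ENSG00000261832, which was at 177 to 288 counts and was not called. TPCN2 shared 22.4% with ENSG00000287725, which was at 0 in both shCon libraries and at 143 and 56.6 counts in shUBXN1. RRAGC shared 23.1% with a gene of at most 2.41 counts. LAMTOR4, which was called lower, shared 18.4% in antisense with TRAPPC14, whose log2 fold change was 0.59 (edgeR adjusted p = 1.85e-05). ATP6V1F, not called, shared 20.6% in antisense with KCP, which was higher (0.75, edgeR adjusted p = 0.0393) but held at most 101 counts. ATP6V0E2, not called, shared 13% in antisense with ATP6V0E2-AS1 and ENSG00000224016. ATP6V0E2-AS1 was higher (1.39, edgeR adjusted p = 0.0151) and held at most 52.3 counts.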

How the data were processed

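RNA was extracted with TRIZOL and mRNA libraries were made for Illumina sequencing. The authors deposited expected counts without normalization, 1 row per gene, and a gene length used here only for TPM. Between 62.4% and 64.6% of the values above 0 in a library were whole and the others fractions. The submitters' processing notes name HISAT2 2.0.4, StringTie 1.3.0 and GRCh37, whereas the study's methods name GRCh38, and the table holds no coordinates. The counting step, its annotation and its use of strand are not given in the sources used here. The methods and the labels also name different library kits.

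Starting from the deposited expected counts, values were rounded, filtered with filterByExpr, scaled with TMM and tested with the quasi-likelihood test of edgeR 4.0.16 (R 4.3.3) on all 16863 genes that passed, with Benjamini-Hochberg adjustment over all of them. The study tested TPM with limma, which is an alternative here. The standard error is the log2 fold change over the square root of F, and the biological coefficient of variation was 0.0711. CPM used TMM-scaled library sizes, and TPM used the unrounded counts and the deposited gene lengths. Of the gene IDs, 61369 (99.7%) matched a symbol. The libraries' totals of 23373700 to 27380508 counts leave genes of a few counts, such as MITF, imprecise, and 2 libraries per group limit how well the spread is known. The script was tested on simulated data. Alternatives were DESeq2 1.42.0, library totals, limma 3.58.1 on log2(TPM + 1), no filter, at least 10 counts in every library, a replicate block, removal of the GC trend and leaving out each library.

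The 41 genes and the other lists were chosen with earlier results of these data known. Every gene of the 41 is named. Those with an adjusted p under 0.05 and an absolute log2 fold change of at least 0.5, the MiT/TFE factors and the V0 a subunits are given per library. From each other list the genes called with an absolute log2 fold change of at least 1 are named, at most 4 per list.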

Additional observations from a re-analysis of the deposited data

How the results depend on the processing

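The number called higher, 26 of 41, was 17 without shCon replicate 2 and between 17 and 27 over the libraries left out in turn. In these fits the group left with 1 library is assumed to vary like the other. With DESeq2 it was 23. The number higher by a fold change of 2 was 1 with at least 10 counts in every library, where MITF was not tested, and 1 with limma on TPM, and between 2 and 3 with a library left out. Over all genes, those higher by a fold change of 2 were 1321 with at least 10 counts in every library and 1028 with limma, and those lower were 524 with limma. Scaling by library totals moved the median of all genes from 0.02 to 0.10, and the role group medians moved with it. The V0 median was 0.035 with library totals and 0.007 with limma, a change of sign, and -0.102 with the GC trend removed. The V1 median was 0.281, 0.250 and 0.243 under the same 3 settings, and 0.140 to 0.235 with a library left out. The accessory median was 1.022 with library totals and 0.992 with limma, and 0.895 to 0.962 with a library left out. The membrane median was 0.312 with library totals, 0.254 with at least 10 counts, 0.205 with the GC trend removed and 0.283 with limma, and 0.188 to 0.232 with a library left out. The nutrient sensing median was 0.456, 0.325 and 0.428 with library totals, GC trend removed and limma, and 0.334 to 0.401 with a library left out. For all 41 genes it was 0.377 with library totals and 0.336 with limma, and 0.257 to 0.301 with a library left out. The cause of these shifts was not tested.

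Reversals of single genes were all among genes not called. With library totals ATP6V0A1 was at 0.018, ATP6V0E2 at 0.052 and TPCN2 at 0.081. With limma ATP6V0E2 was at 0.024 and TPCN2 at 0.050. With at least 10 counts TPCN2 was at 0.025, and with the GC trend removed MCOLN1 was at -0.100. With a library left out the ranges were -0.086 to 0.003 for ATP6V0E2, -0.043 to 0.053 for ATP6V1C1, -0.057 to 0.122 for ATP6V1F, -0.047 to 0.156 for CTNS, -0.071 to 0.120 for MCOLN1 and -0.104 to 0.077 for TPCN2.

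The labels give both groups the replicate numbers 1 and 2 but no shared origin, and deviations of same-numbered libraries correlated with r = 0.0775. With a replicate block, 26 of the 41 genes were higher and 6 lower, and all 41 kept their side of the threshold. Over all genes, 5000 were higher and 5023 lower with the block.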

Other observations

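Among genes of the pump outside the 41, named after their values were seen, the assembly factor VMA21 was at 186 and 192 CPM in shCon and at 106 and 120 CPM in shUBXN1, a log2 fold change of -0.74 (edgeR adjusted p = 2.34e-06). RNASEK, a small membrane protein found with V0, was at 94.7 and 96.8 CPM in shCon and at 152 and 166 CPM in shUBXN1, a log2 fold change of 0.73 (edgeR adjusted p = 1.58e-06). The groups did not overlap for either gene. FNIP2, the paralog of FNIP1, was at 26.0 and 25.5 CPM in shCon and at 52.0 and 50.3 CPM in shUBXN1 (log2 fold change 0.99, edgeR adjusted p = 1.94e-07), against a log2 fold change of 0.42 for FNIP1. The difference between these paralogs was not tested. YWHAE, a 14-3-3 protein of the kind that holds phosphorylated TFEB in the cytoplasm, was at 649 and 700 CPM in shCon and at 348 and 411 CPM in shUBXN1 (log2 fold change -0.83, edgeR adjusted p = 2.8e-06). Of the other 14-3-3 genes on the list, YWHAH was called higher (0.29, edgeR adjusted p = 0.00694), and YWHAZ (-0.19, edgeR adjusted p = 0.0806), YWHAB (-0.16), YWHAG (-0.07) and YWHAQ (-0.03) were not called.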
